A study of Mus musculus with 16 samples.

Results

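Dendritic cells (DCs) take up antigen in tissues, move to lymph nodes and present it to T cells, and macrophages mostly stay in place and clear material. Bone marrow cultured in GM-CSF is known to give a mix of macrophage-like and DC-like cells, while M-CSF is known to give macrophages. The 10 genes followed here are in wide use as DC genes: *Flt3*, *Zbtb46* and *Batf3* of the lineage and its transcription, *Ccr7* and *Fscn1* of the migrating mature cell, the chemokines *Ccl17* and *Ccl22*, and *Kmo*, *Dpp4* and *Cd209a*, an enzyme of tryptophan breakdown, a surface peptidase and a lectin receptor. They were taken by gene symbol, and all 10 were found, once each, among the 22287 genes of the count table.

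The cells were bone marrow derived macrophages (BMDMs) of C57BL/6J mice of 8 weeks, grown for 7 days in GM-CSF (GM) or in M-CSF (M), on tissue culture treated (TC) or untreated (noTC) dishes. They were sequenced at steady state or after LPS, a bacterial cell wall lipid, for 3 h. This gave 8 groups of 2 libraries and 16 libraries in all, and the question behind the design was how the dish surface changes each type of BMDM. The study calls the libraries of a group biological replicates, and whether they came from separate mice or separate dishes is not given in the sources used here, so p-values measure the spread between these libraries. The cultures were sequenced whole. Fewer cells of a type and less RNA per cell therefore cannot be told apart in any value below.

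Libraries held 17527802 to 31458363 counts. Values are library-scaled counts (CPM) after TMM scaling, and 3 counts, taken as the lowest count read as a level, were worth 0.0697 to 0.174 CPM. The macrophage markers (10 of 10 in the table) summed to 38000 to 47800 CPM in GM libraries and 20700 to 30500 CPM in M libraries, of which *Lyz2*, lysozyme, made up most (35500 CPM in GM-TC and 19400 CPM in M-TC). Of the 10 markers 3 were higher and 7 lower in GM-TC than in M-TC (median log2 fold change -1.34), where 61.5% of all genes tested were called. Among the lower ones were *Csf1r*, the M-CSF receptor (842 against 2860 CPM), *Adgre1*, which codes for F4/80 (221 against 824 CPM), and *C1qa* (28.2 against 149 CPM). The higher ones were *Lyz2*, *Itgam* (1870 against 733 CPM) and *Mertk* (98.6 against 50.5 CPM). Markers of other cells were also counted. The 8 neutrophil markers summed to 10.3 to 39.1 CPM in GM and 0.299 to 2 CPM in M libraries, and the 6 mast cell and basophil markers to 20.9 to 35.2 and 3.31 to 8.25 CPM. B cell, T and NK cell and fibroblast markers summed to at most 0.867, 1.59 and 16.7 CPM. The 9 heart markers summed to 22 to 58.6 CPM in the 4 TC steady state libraries and at most 0.872 CPM in the other 12. The noTC steady state libraries stood apart in another way: genes under 1 CPM in both TC libraries of that growth factor, but with a mean of at least 100 CPM in the 10 libraries that are neither TC steady state nor of the group itself, exceeded their TC level in them by a median of 0.675% (GM, 15 genes) and 0.6% (M, 19 genes) of that mean. For the 10 genes, results that rest on these libraries are given with and without this share where it changed a call or moved a called fold by over 1.5 times.

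Promoter sequence was available for 9 of the 10 genes, as 300 base windows around the RefSeq start (GRCm38.p6), and is shown for 3 genes whose levels changed upon LPS challenge. *Ccl22* and *Ccl17* lie on the same strand of chromosome 8, with gene starts at 94745590 and 94810453, and *Dpp4* lies on the minus strand of chromosome 2. Only bases outside annotated exons are printed, 5′ to 3′, and the capitals mark a match to the interferon response (ISRE) core GAAANNGAA, here on the opposite strand.
Ccl22, chr8:94745434-94745589, plus strand: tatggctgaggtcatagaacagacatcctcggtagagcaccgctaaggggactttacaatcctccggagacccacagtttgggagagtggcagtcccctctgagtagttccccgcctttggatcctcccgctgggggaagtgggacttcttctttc
Ccl17, chr8:94810203-94810452, plus strand: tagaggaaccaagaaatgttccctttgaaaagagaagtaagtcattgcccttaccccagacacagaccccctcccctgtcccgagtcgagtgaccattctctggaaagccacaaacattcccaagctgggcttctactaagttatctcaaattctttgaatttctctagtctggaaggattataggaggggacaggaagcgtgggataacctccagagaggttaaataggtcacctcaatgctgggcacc
Dpp4, chr2:62412232-62412481, minus strand: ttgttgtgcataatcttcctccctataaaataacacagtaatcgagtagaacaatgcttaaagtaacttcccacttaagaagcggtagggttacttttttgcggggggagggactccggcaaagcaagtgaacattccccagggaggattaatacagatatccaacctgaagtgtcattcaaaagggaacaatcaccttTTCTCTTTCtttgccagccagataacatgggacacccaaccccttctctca
The *Dpp4* match spans bases 51 to 43 before the start. An ISRE core was found in 1 of the 9 windows, against 8.56% of all 32851 windows. The AP-1 motif TGANTCA was found in 1 of 9, that of *Zbtb46*, against 7.81%, and that window starts 35038 bases inside the gene as GENCODE draws it. The RefSeq starts of *Kmo* and *Batf3* also lie inside the gene, 11812 and 567 bases from the GENCODE start. The NF-kB consensus was found in 0 of 9, against 4.51%. Both strands were searched, and a missing match says only that these letters are not in this window.

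**Figure D1:**
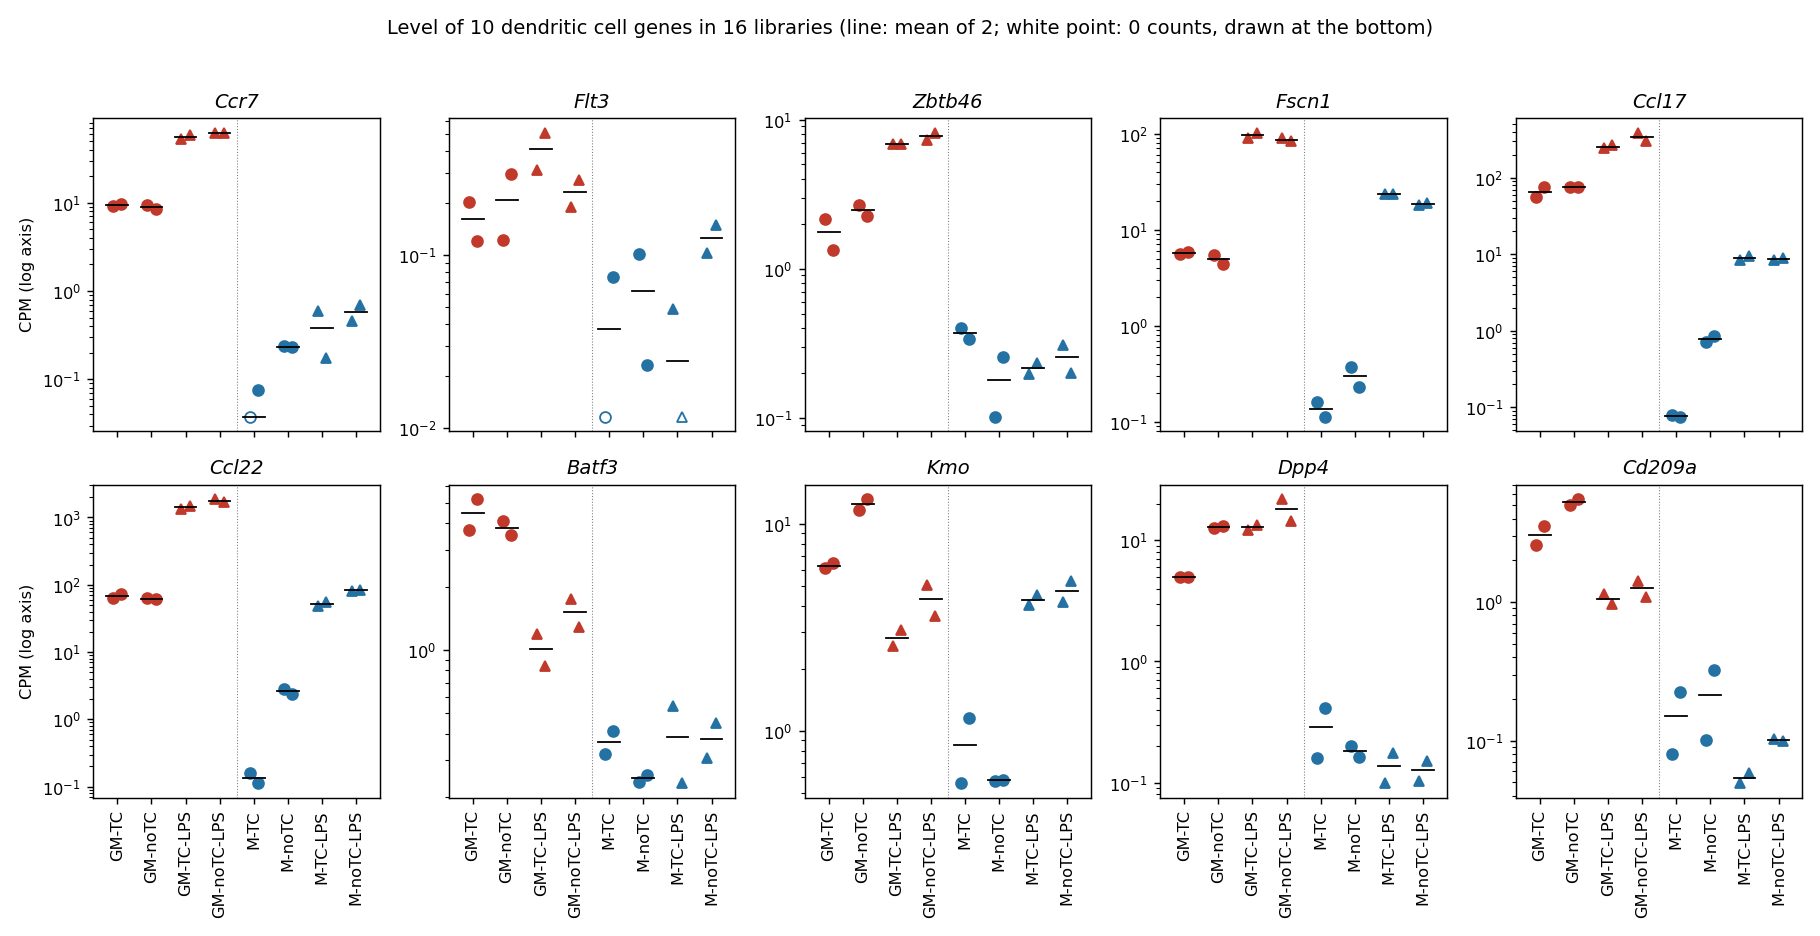
CPM of each of the 10 genes (log axis) in the 16 libraries, with red for GM and blue for M, circles for steady state, triangles for LPS, and a line at the mean of 2 libraries. A white point is a library with 0 counts, drawn at the bottom of its panel. GM libraries sit above M libraries of the same dish and state in all panels but that of *Kmo*, where the LPS groups of both growth factors span 2.58 to 5.29 CPM.

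GM-BMDMs held more of nearly all of these genes than M-BMDMs. At steady state GM was higher for 9 of 9 tested genes on TC dishes, where 61.5% of the 12514 genes tested were called, and for 9 of 9 on noTC dishes, where 62.1% were. After LPS 8 of 9 were higher in GM-TC-LPS than in M-TC-LPS and *Kmo* was lower (66.8% of all genes called), and 8 of 9 were higher in GM-noTC-LPS than in M-noTC-LPS, with *Kmo* not called (66.1% of all genes called). The median log2 fold change over the 9 genes was 4.28, 4.49, 4.75 and 4.44 in these 4 comparisons, against 0.02, 0, 0.03 and 0.02 over all genes tested. The filter on low counts keeps a gene with enough counts in a few libraries, whichever group they belong to. *Dpp4* (221 summed counts in GM-TC, 15 in M-TC) and *Cd209a* (139 and 8) passed it through their GM levels. The direction of their calls is thus not independent of the filter, and neither are the counts and medians that include them. A call is an adjusted p under 0.05 in edgeR's quasi-likelihood test, and an exact permutation test of 2 libraries against 2 could not go below p = 0.333.

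The chemokines were well expressed in GM-TC and at a few counts in M-TC. CCL17 and CCL22 both bind CCR4 and draw T helper 2 and regulatory T cells. *Ccl17* was at 55.5 and 75.1 CPM in the GM-TC libraries and at 0.0798 and 0.0748 CPM, 2 counts each, in the M-TC libraries. *Ccl22* was at 64.2 and 73.2 CPM in GM-TC and at 0.16 and 0.112 CPM, or 4 and 3 counts, in M-TC. Neither pair of groups overlapped. The GM-TC to M-TC ratio of summed counts was 860 for *Ccl17* (95% exact interval 335 to 3160) and 512 for *Ccl22* (248 to 1280), and these intervals cover counting error only. On noTC dishes the log2 fold change was smaller, at 6.57 ± 0.19 (SE, n = 2) for *Ccl17* and 4.58 ± 0.11 for *Ccl22*, with edgeR adjusted p = 3.2e-18 and 1.6e-19. With the share of other libraries subtracted, they were 8.01 and 8.13.

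*Ccr7*, the receptor that guides DCs to lymph nodes, was at 9.19 and 9.62 CPM in GM-TC, and at 0 and 0.0748 CPM in M-TC. *Fscn1*, which bundles actin in the protrusions of mature DCs, was at 5.55 and 5.84 CPM in GM-TC and at 0.16 and 0.112 CPM in M-TC. For both genes every M-TC library lay at or near the limit of 3 counts. Their ratios of counts were 244 (67.2 to 2020) for *Ccr7* and 42.3 (20.2 to 106) for *Fscn1*. After LPS the genes parted: M-TC-LPS held 24.4% of the GM-TC-LPS level of *Fscn1*, but 0.682% of that of *Ccr7*. On noTC dishes the shares were 21.5% and 0.943%. At steady state on noTC dishes the log2 fold changes of GM over M were 5.23 ± 0.23 for *Ccr7* and 4.06 ± 0.24 for *Fscn1*, or 5.96 and 5.19 after the subtraction.

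The lineage genes came next. *Flt3*, the receptor for the cytokine that drives DC development from bone marrow, had 0 to 11 counts in every library, or at most 0.511 CPM, and was filtered out before the test. Its levels in GM-TC were 0.202 and 0.121 CPM and in M-TC 0 and 0.0748 CPM, and its ratio of 4.06 had a counting interval of 0.773 to 40.1. Without the filter *Flt3* was called in 1 of 12 pairwise comparisons, as higher in GM-TC-LPS than in M-TC-LPS (log2 fold change 3.72, edgeR adjusted p = 0.024). *Zbtb46*, a transcription factor of classical DCs and their precursors, was at 2.17 and 1.33 CPM in GM-TC, at 2.69 and 2.25 CPM in GM-noTC, at 0.399 and 0.337 CPM in M-TC and at 0.101 and 0.255 CPM in M-noTC. It was 2.21 ± 0.36 higher on the log2 scale in GM-TC than in M-TC (edgeR adjusted p = 1.7e-05) and 3.65 ± 0.35 higher in GM-noTC than in M-noTC (adjusted p = 5.5e-09). *Batf3*, which type 1 classical DCs need to form, was at 3.74 and 5.23 CPM in GM-TC and at 0.319 and 0.412 CPM in M-TC, which differed by 3.60 ± 0.34 on the log2 scale (edgeR adjusted p = 5.9e-09). The GM and M libraries did not overlap for *Zbtb46* or *Batf3* in either dish.

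*Kmo* codes for kynurenine 3-monooxygenase, which turns kynurenine into 3-hydroxykynurenine. It was at 6.11 and 6.48 CPM in GM-TC and at 0.558 and 1.16 CPM in M-TC (log2 fold change 2.86 ± 0.25, edgeR adjusted p = 1.3e-09). *Dpp4*, also CD26, a peptidase that trims chemokines and incretins, was at 4.95 CPM in both GM-TC libraries and at 0.16 and 0.412 CPM in M-TC (4.07 ± 0.33, adjusted p = 4.1e-10). *Cd209a*, a mouse relative of DC-SIGN found on monocyte-derived DCs, was at 2.57 and 3.54 CPM in GM-TC and at 0.0798 and 0.224 CPM in M-TC, a ratio of counts of 20.2 (9.95 to 47.6). All 3 genes were thus several times higher in GM with no overlap. On noTC dishes the log2 fold changes were 4.42 ± 0.23, 6.13 ± 0.28 and 4.49 ± 0.35. With the share of other libraries subtracted, *Zbtb46*, *Batf3*, *Kmo*, *Dpp4* and *Cd209a* differed between GM-noTC and M-noTC by 3.76 to 6.36, and all stayed called. *Cd209a* has close relatives in a gene cluster, and how the counting divided reads among them is not given in the sources used here.

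**Figure D2:**
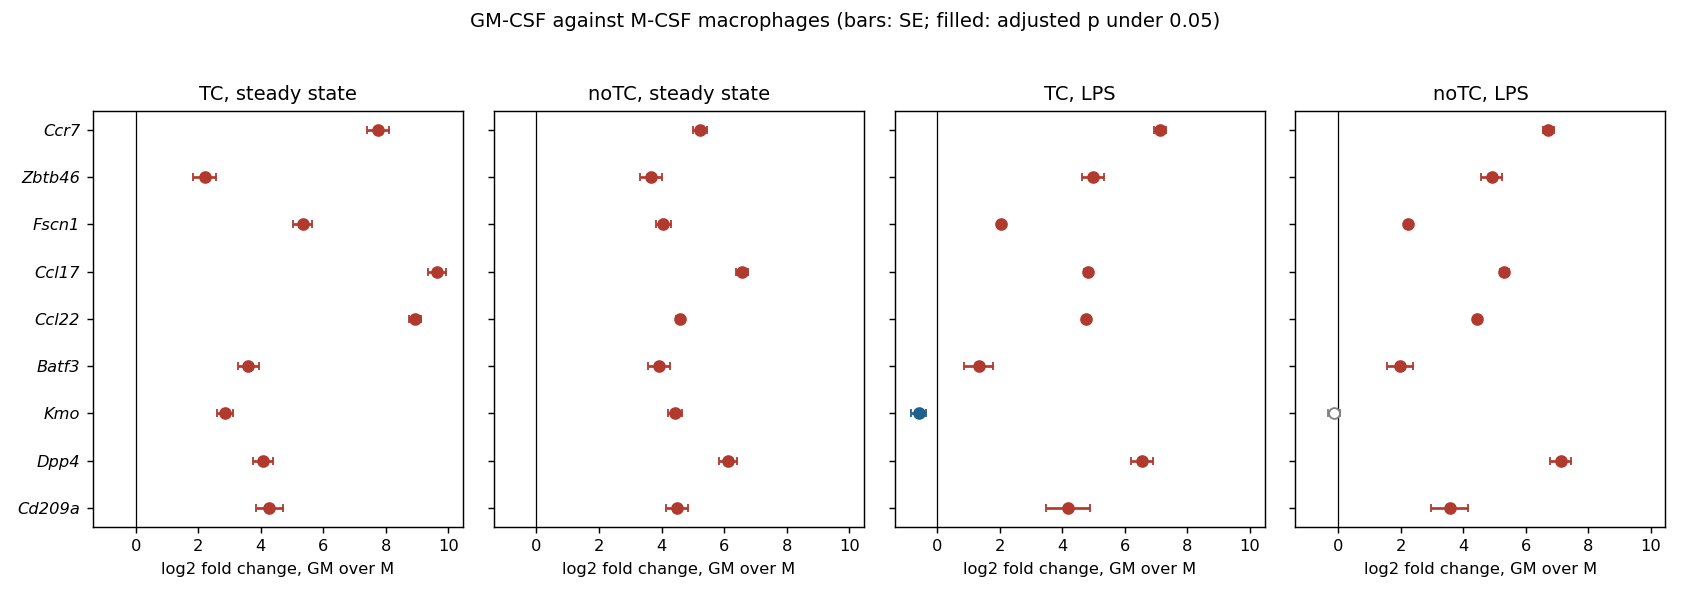
Log2 fold change of GM over M (horizontal axis) for the 9 tested genes in 4 panels, TC and noTC at steady state and TC and noTC after LPS, with bars for SE and filled points for edgeR adjusted p under 0.05. All points lie right of 0 except *Kmo* after LPS, at -0.60 on TC and -0.14 on noTC.

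The comparisons above come from the same fit over all 16 libraries, and some rest on single libraries. After LPS on TC dishes, *Batf3* (log2 fold change 1.33 ± 0.46, edgeR adjusted p = 0.016) and *Kmo* (-0.60 ± 0.23, adjusted p = 0.025) were no longer called without GM-TC-LPS replicate 1 (1.06 and -0.49, adjusted p = 0.11 and 0.14) or without M-TC-LPS replicate 2 (0.89 and -0.53, adjusted p = 0.14 and 0.11). Called folds that moved by over 1.5 times were those of *Ccr7* over M-TC (6.87 and 10.79 without M-TC replicate 1 and 2, from 7.75) and, without M-TC replicate 2, *Kmo* (3.47), *Dpp4* (4.90) and *Cd209a* (5.17). Without M-noTC replicate 2 *Zbtb46* was at 4.53 and *Cd209a* at 5.63, and without M-TC-LPS replicate 1 *Ccr7* was at 8.29 and *Batf3* at 2.09. The neutrophil and mast cell marker sums given above were also higher in all 8 GM libraries than in all 8 M libraries, and their part in the result was not tested. With library size alone as the scaling, all genes gave 2458 higher and 6363 lower in GM-TC than in M-TC, against 4078 and 3619 with TMM, and the median of all genes moved to -0.29, while the members' calls remained 9 of 9.

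Other DC genes moved in both directions with the growth factor, and of all 12514 genes tested 4078 were higher and 3619 lower in GM-TC than in M-TC, or 61.5% called. Of 10 markers of type 1 classical DCs (cDC1), 9 were tested, and 4 were higher and 4 lower in GM-TC than in M-TC. Their median log2 fold change was 0.20. *Clec9a*, a receptor for dead cells, was at 31.5 ± 0.42 CPM in GM-TC (SD, n = 2) against 0.248 ± 0.13 CPM in M-TC, and *Itgae*, the integrin chain CD103, at 2.76 ± 1.11 against 0.0586 ± 0.030 CPM. *Cadm1*, an adhesion molecule, went the other way, at 5.97 ± 0.44 against 154 ± 4.52 CPM. *Xcr1*, the chemokine receptor that defines cDC1, was near 0 in both, at 0.217 and 0.193 CPM, and *Cd8a* was at 0 and 0.0199 CPM. Of 10 cDC2 markers, 9 were tested, with 6 higher and 3 lower in GM-TC (median 2.41). *Itgax*, which codes for CD11c, was at 916 ± 32.9 against 15.5 ± 1.11 CPM, *Mgl2* at 69 ± 2.23 against 0.901 ± 0.26 CPM and *Irf4* at 63.5 ± 3.05 against 4.68 ± 0.38 CPM, while *Clec12a* was at 14.9 ± 0.45 against 305 ± 3.11 CPM. *Mgl2* has a close relative in *Clec10a*. Of 19 genes of mature DCs, 18 were tested, with 10 higher and 5 lower in GM-TC at steady state (median 1.53). *Pdcd1lg2*, the ligand PD-L2, was at 18.9 ± 1.18 against 0.157 ± 0.12 CPM and *Socs2* at 68.7 ± 4.77 against 1.36 ± 0.28 CPM. At steady state GM-TC therefore held *Itgax* and *Clec9a* but very little of *Xcr1*, *Cd8a* and *Flt3*. M-TC also held very little of *Xcr1*, *Cd8a* and *Flt3* (0.0374 CPM), and the cDC1 list as a whole went both ways.

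The partners of the 10 genes were followed too. Of 10 other genes of the kynurenine pathway, 8 were tested, and 4 were higher and 0 lower in GM-TC than in M-TC, a smaller share than the 61.5% of all genes called. *Kynu*, kynureninase, was at 40.2 ± 0.31 against 0.823 ± 0.32 CPM, and *Kyat3*, an aminotransferase, at 5.24 ± 0.56 against 2.02 ± 0.37 CPM. *Cd209c* was the only other member of its family of 6 that passed the filter, at 4.18 ± 0.41 CPM in GM-TC and 0.0374 ± 0.053 CPM in M-TC (edgeR adjusted p = 5.5e-09), and the limit on near copies holds for it as well. Of the 4 relatives of *Dpp4*, *Dpp7* was higher in GM-TC, at 155 ± 18.9 against 80.5 ± 1.43 CPM, and *Dpp8* was lower, at 130 ± 19.1 against 158 ± 4.7 CPM. Of the 5 receptors and ligands that pair with CCR7, CCL17 and CCL22, only *Ccr4* passed the filter. It was at 1.21 ± 0.16 CPM in GM-noTC-LPS and at 0 in both M-noTC-LPS libraries, which allow up to 3 counts each. *Cd209c* and *Ccr4* also passed the filter through their GM levels, so the direction of their difference is not independent of it.

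LPS split the 10 genes. In GM-BMDMs *Ccr7*, *Zbtb46*, *Fscn1*, *Ccl17*, *Ccl22* and *Dpp4* rose and *Batf3*, *Kmo* and *Cd209a* fell, on TC dishes (9 of 9 called, against 67% of all genes) and on noTC dishes (9 of 9, against 67.7%). In M-BMDMs *Ccr7*, *Fscn1*, *Ccl17*, *Ccl22* and *Kmo* rose, on TC dishes (5 of 9, against 74% of all genes) and on noTC dishes (5 of 9, against 72.3%), and the other 4 were not called. *Kmo* thus fell in GM and rose in M. The median over the 9 genes was 1.95 and 1.65 in GM on TC and noTC dishes, and 2.30 and 1.3 in M, against -0.05, -0.03, -0.01 and -0.01 over all genes tested.

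**Figure D3:**
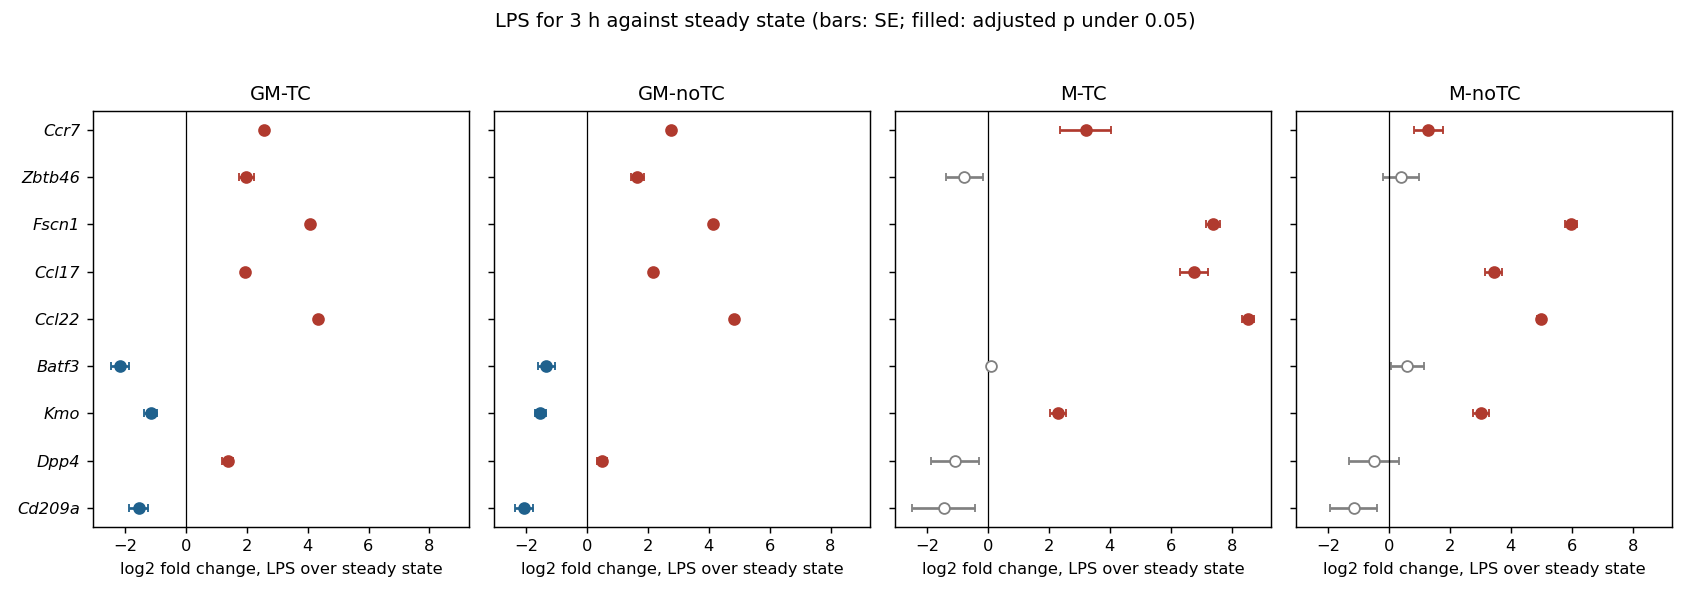
Log2 fold change of LPS over steady state (horizontal axis) for the 9 tested genes in GM and in M on each dish, with bars for SE and filled points for edgeR adjusted p under 0.05. *Batf3*, *Kmo* and *Cd209a* lie left of 0 in both GM panels, and *Kmo* lies right of 0 in both M panels, at 2.30 and 3.03.

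The chemokines rose in every culture. *Ccl22* went from 64.2 and 73.2 CPM to 1350 and 1470 CPM in GM-TC, and from 63.4 and 61.1 to 1880 and 1690 CPM in GM-noTC. In M-BMDMs it went from 0.16 and 0.112 to 48.5 and 56.4 CPM on TC, and from 2.86 and 2.39 to 81.9 and 82.5 CPM on noTC. So the M libraries after LPS came close to the GM libraries at steady state but stayed far under the GM libraries after LPS, of which they held 3.73% on TC and 4.6% on noTC. On the log2 scale *Ccl22* rose by 4.35 ± 0.08 in GM-TC, 4.84 ± 0.08 in GM-noTC and 4.98 ± 0.11 in M-noTC, with edgeR adjusted p of 5.5e-22, 1.2e-22 and 1.3e-20. In M-TC the ratio of counts was 386 (187 to 961). *Ccl17* went from 55.5 and 75.1 to 241 and 264 CPM in GM-TC and from 76.7 and 75.3 to 387 and 302 CPM in GM-noTC, a rise of 1.95 ± 0.11 and 2.18 ± 0.10 on the log2 scale (edgeR adjusted p = 2.5e-13 and 2.4e-14). In M-BMDMs it reached 8.46 and 9.41 CPM on TC and 8.42 and 8.88 CPM on noTC, which was under the GM level at steady state.

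*Fscn1* rose from 5.55 and 5.84 to 89.3 and 102 CPM in GM-TC and from 5.5 and 4.36 to 90.5 and 82.6 CPM in GM-noTC, or 16.8-fold and 17.6-fold (edgeR adjusted p = 1.7e-19 and 1.3e-19). In M-BMDMs it went from 0.16 and 0.112 to 23.3 and 23.5 CPM on TC, a ratio of counts of 173 (83.6 to 431), and from 0.371 and 0.232 to 18 and 19.1 CPM on noTC. M-BMDMs with LPS therefore held more *Fscn1* than GM-BMDMs without. *Ccr7* rose to 53.2 and 58.8 CPM in GM-TC-LPS and to 61.1 and 62 CPM in GM-noTC-LPS, or 5.95-fold and 6.85-fold (adjusted p = 1.9e-15 and 3.2e-16). In M-BMDMs it reached only 0.591 and 0.174 CPM on TC and 0.462 and 0.698 CPM on noTC. Those calls were thin: *Ccr7* was at 12 and 3 counts in M-TC-LPS, and its ratio of counts over M-TC, which had 2 counts in all, was 10.4 (2.41 to 93.3). The fitted rise of 3.21 on the log2 scale was not called without M-TC-LPS replicate 1 (2.04, adjusted p = 0.13) and was 2.34 and 6.26 without M-TC replicate 1 and 2. On noTC the rise of 1.3 ± 0.47 was not called without M-noTC replicate 2 (adjusted p = 0.065) or M-noTC-LPS replicate 2 (0.97, adjusted p = 0.19).

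*Zbtb46* and *Batf3* moved in opposite directions in GM-BMDMs. *Zbtb46* rose to 6.82 and 6.87 CPM in GM-TC-LPS and to 7.34 and 8.17 CPM in GM-noTC-LPS, 3.98-fold and 3.14-fold (edgeR adjusted p = 1.2e-07 and 4.7e-07). *Batf3* fell to 1.19 and 0.836 CPM and to 1.75 and 1.28 CPM, a level 4.47 and 2.51 times lower (adjusted p = 1.7e-06 and 2.7e-04). In M-BMDMs with LPS *Zbtb46* stayed at 0.197 to 0.308 CPM and *Batf3* at 0.232 to 0.541 CPM. At 4 to 11 counts a library, no change there was detectable at this depth with TMM scaling. *Flt3* was at 0.31 and 0.511 CPM in GM-TC-LPS and at 0.189 and 0.274 CPM in GM-noTC-LPS, and no LPS comparison of *Flt3* was called without the filter.

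*Kmo* fell from 6.11 and 6.48 to 2.58 and 3.06 CPM in GM-TC and from 11.7 and 13.2 to 5.07 and 3.6 CPM in GM-noTC, or 2.22 and 2.88 times (edgeR adjusted p = 5.1e-05 and 1.2e-07). In M-BMDMs it rose from 0.558 and 1.16 to 4.08 and 4.53 CPM on TC and from 0.573 and 0.581 to 4.21 and 5.29 CPM on noTC, 4.93-fold and 8.17-fold (adjusted p = 9.2e-08 and 7.9e-10). The groups that lay apart at steady state overlapped on noTC dishes after LPS. The difference between the growth factors in the LPS response was -3.45 ± 0.34 on TC and -4.56 ± 0.32 on noTC (log2, edgeR interaction term, adjusted p = 3.3e-08 and 1.6e-10). *Kynu*, the neighbouring enzyme, rose in both: from 40.2 ± 0.31 to 123 ± 2.41 CPM in GM-TC and from 0.823 ± 0.32 to 4.07 ± 0.74 CPM in M-TC. *Ido2*, which starts the pathway, rose from 0.363 ± 0.23 to 3.41 ± 0.22 CPM in GM-TC. Over the 8 tested pathway genes other than *Kmo*, 3 rose and 0 fell in GM-TC, 4 rose and 1 fell in GM-noTC, and 3 and 4 rose and 0 fell in M-TC and M-noTC. Of all genes tested 67%, 67.7%, 74% and 72.3% were called in these comparisons, each a larger share than among the 8.

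*Dpp4* rose 2.60-fold in GM-TC, to 12.3 and 13.5 CPM (edgeR adjusted p = 5.5e-07). In GM-noTC it went from 12.6 and 13.2 to 22 and 14.6 CPM, and this rise of 0.50 ± 0.15 on the log2 scale (adjusted p = 0.0058) rested on replicate 1: without GM-noTC-LPS replicate 1 it was 0.18 (adjusted p = 0.35). *Cd209a* fell to 1.14 and 0.975 CPM in GM-TC-LPS and to 1.42 and 1.09 CPM in GM-noTC-LPS, 2.92 and 4.21 times (adjusted p = 2.4e-04 and 1.9e-06). In M-BMDMs with LPS *Dpp4* had 2 or 3 counts a library and *Cd209a* 1 or 2, which is at or under the limit of 3 counts. *Cd209c* fell as well, from 4.18 ± 0.41 to 1.4 ± 0.38 CPM in GM-TC and from 7.59 ± 1.23 to 1.68 ± 0.83 CPM in GM-noTC.

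Genes of mature DCs mostly rose with LPS, in GM and in M: 16 of 18 tested rose in each of the 4 cultures, and 1 fell in GM-TC and in GM-noTC. Of all 12514 genes tested 4103 rose upon LPS in GM-TC and 4709 in M-TC, while on noTC dishes 4205 rose with GM-CSF and 4551 with M-CSF. Between 67% and 74% were called in either direction. *Cd40*, a receptor for T cell help, went from 0.796 ± 0.13 to 275 ± 12 CPM in GM-TC and from 6.82 ± 1.29 to 735 ± 10.8 CPM in M-TC. *Il4i1*, an amino acid oxidase, went from 0.0748 ± 0.11 to 47 ± 1.04 CPM in M-TC. *Apol7c*, an apolipoprotein L gene, went from 0.957 ± 0.64 to 57.6 ± 2.82 CPM in GM-TC and was at 1.01 ± 0.11 CPM in M-TC-LPS. Of the cDC1 markers *Xcr1* rose from 0.217 ± 0.092 to 2.1 ± 0.12 CPM in GM-TC and from 0.193 ± 0.0087 to 2.14 ± 0.39 CPM in M-TC. *Tlr3*, a receptor for viral RNA, rose from 11.5 ± 0.97 to 133 ± 0.24 CPM in GM-TC and from 34.8 ± 1.7 to 438 ± 44.9 CPM in M-TC. *Clec9a* fell from 31.5 ± 0.42 to 9.58 ± 0.56 CPM in GM-TC. The median over all 18 mature DC genes tested was 2.77 in GM and 2.95 in M on TC dishes. Between the growth factors after LPS, 8 of the 18 were higher and 7 lower in GM-TC-LPS than in M-TC-LPS (median 0.255, 66.8% of all genes called). On noTC dishes after LPS 9 were higher and 7 lower in GM than in M (median 0.662, 66.1% of all genes called).

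The size of the change upon LPS depends on the scaling. With library size alone the median of all genes moved to between -0.53 and -0.83 on the log2 scale in the 4 LPS comparisons, so the values here are relative to that median. Under it *Ccr7* was not called in M-noTC (0.58, edgeR adjusted p = 0.25), *Dpp4* in GM-noTC was at -0.01 (adjusted p = 0.98), and in M-TC 5 genes rose and 3 fell, *Zbtb46* (-1.58), *Dpp4* (-1.89) and *Cd209a* (-2.22), and *Cd209a* also fell in M-noTC (-1.85, adjusted p = 0.026). Over all genes, library size alone gave 2040 higher and 8648 lower in M-TC-LPS than in M-TC, against 4709 and 4549 with TMM, and 2149 and 7841 in GM-TC-LPS than in GM-TC, against 4103 and 4282. Among the rises in M-TC *Kmo* was at 1.48 and *Fscn1* at 6.57, and without M-TC replicate 2 *Kmo* was at 2.94. The TC steady state libraries, which carry the heart genes given above, are the baseline of both TC comparisons. Whether the source of those genes bears on the result was not tested.

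The dish changed fewer genes than growth factor or LPS did, both among these 9 and among all genes tested. In GM at steady state it changed *Kmo* and *Dpp4*. GM-noTC against GM-TC gave 2 of 9 genes higher and 0 lower, where 7.54% of all genes were called. After LPS 2 of 9, *Ccl17* and *Ccl22*, were higher in GM-noTC-LPS than in GM-TC-LPS (2.8% of all genes called). In M-BMDMs at steady state 3 of 9, *Ccr7*, *Ccl17* and *Ccl22*, were higher on noTC (27.2% of all genes called), and after LPS *Ccl22* was higher and *Fscn1* lower on noTC (23.3% of all genes called). The median over the 9 genes was 0.21, 0.34, 0.57 and 0.15, against 0, 0, 0.01 and 0 over all genes.

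**Figure D4:**
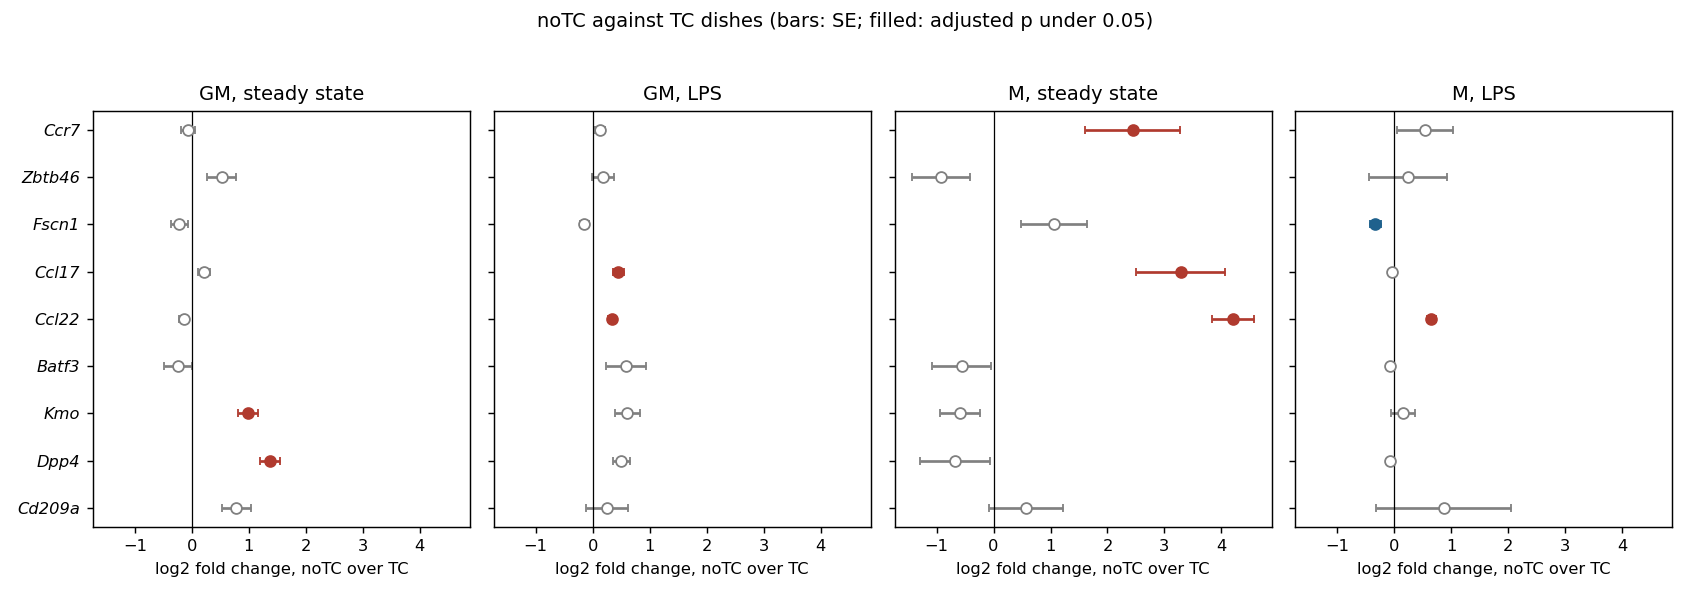
Log2 fold change of noTC over TC dishes (horizontal axis) for the 9 tested genes in GM at steady state, GM with LPS, M at steady state and M with LPS, with bars for SE and filled points for edgeR adjusted p under 0.05. *Kmo* and *Dpp4* are filled in the GM steady state panel, at 0.98 and 1.38, and *Ccl22* is at 4.21 in the M steady state panel.

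In GM-BMDMs at steady state *Dpp4* was at 4.95 CPM in both TC libraries and at 12.6 and 13.2 CPM on noTC, 2.60-fold higher (edgeR adjusted p = 1.4e-05). *Kmo* was at 6.11 and 6.48 CPM on TC and at 11.7 and 13.2 CPM on noTC, 1.98-fold higher (adjusted p = 5.1e-04). Neither overlapped, and the excess was 177% and 253% of the mean level in the other libraries, where the median share given above was 0.675%. *Cd209a* was at 2.57 and 3.54 CPM on TC and at 5.05 and 5.54 CPM on noTC (0.78 ± 0.26, adjusted p = 0.069), with no overlap but not past the threshold. *Ccl17* was called higher on noTC without GM-TC replicate 2 (0.45, adjusted p = 0.0061) and *Ccl22* lower without GM-TC replicate 1 (-0.24, adjusted p = 0.039), and neither was called with all libraries and the filter on low counts. Without that filter *Ccl17* (0.21, adjusted p = 0.034) and *Cd209a* (0.78, adjusted p = 0.026) were called. With the share subtracted, *Kmo* was at 0.99 and *Dpp4* at 1.38, and both stayed called. In M-BMDMs, where *Kmo* and *Dpp4* were low, noTC was at 0.577 ± 0.0056 CPM of *Kmo* against 0.859 ± 0.43 CPM on TC and 0.182 ± 0.028 CPM of *Dpp4* against 0.286 ± 0.18 CPM. The dish effect differed between GM and M for 4 of 9 genes at steady state, *Kmo*, *Dpp4*, *Ccl17* and *Ccl22* (edgeR interaction term, 11.2% of all genes called), and for 0 of 9 after LPS (10.6%). Of those 9 genes after LPS, 2 had an unadjusted p under 0.05 in edgeR, *Ccl17* (0.032) and *Ccl22* (0.00761), and DESeq2 called 0 of 9. *Ccl22* was called without GM-noTC-LPS replicate 1 (-0.39, adjusted p = 0.033) or M-TC-LPS replicate 2 (-0.42, adjusted p = 0.022), and *Ccl17* without GM-noTC-LPS replicate 2 (0.66, adjusted p = 0.037).

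The chemokine excess in M-noTC was small in CPM. *Ccl22* had 85 and 103 counts in M-noTC, 2.86 and 2.39 CPM, against 4 and 3 counts in M-TC, a ratio of 19.1 (9.1 to 48.2). *Ccl17* had 21 and 37 counts against 2 and 2, a ratio of 10.3 (3.82 to 39.2), and *Ccr7* had 7 and 10 against 0 and 2, a ratio of 6.05 (1.44 to 54). These groups did not overlap. The excess of M-noTC over M-TC, taken as a share of the mean level in the 10 other libraries, was 0.63% for *Ccl22*, 0.845% for *Ccl17*, 1.29% for *Ccr7* and 0.615% for *Fscn1*. The median given above over 19 genes, of which *Ccl17* and *Ccl22* were 2, was 0.6%. With that share subtracted, 0 of 9 genes were called (*Ccl22* 0.60, *Ccl17* 1.84 and *Ccr7* 1.71 on the log2 scale, edgeR adjusted p = 0.71, 0.20 and 0.20), and for *Ccl17* and *Ccl22* this is no separate check, since they helped to set the share. *Ccr7* was also not called by DESeq2 (adjusted p = 0.072), or without M-noTC replicate 1 (2.43, adjusted p = 0.084), M-noTC replicate 2 (2.45, adjusted p = 0.10) or M-TC replicate 1 (1.57, adjusted p = 0.25), and was at 5.50 without M-TC replicate 2. The same share enters the LPS values of M-noTC, where *Ccl22* rose by 8.60 and *Ccl17* by 4.88 with it subtracted, against 4.98 and 3.43, *Fscn1* by 7.17 against 5.98 and *Ccr7* by 2.04 against 1.3. *Kmo* rose by 3.1 against 3.03, and in GM-noTC the subtraction left all 9 genes called upon LPS, at -2.08 to 4.91.

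After LPS the dish moved *Ccl22* in both cell types. It was at 1350 and 1470 CPM in GM-TC-LPS and at 1880 and 1690 CPM in GM-noTC-LPS, 1.27-fold higher (edgeR adjusted p = 0.0040), and at 48.5 and 56.4 CPM in M-TC-LPS and 81.9 and 82.5 CPM in M-noTC-LPS, 1.57-fold higher (adjusted p = 3.1e-06). *Ccl17* was 1.36-fold higher in GM-noTC-LPS than in GM-TC-LPS (adjusted p = 0.011) and 0.971 of the TC level in M-noTC-LPS (adjusted p = 0.91). Both GM calls were lost without GM-noTC-LPS replicate 1 (0.26 and 0.26 for *Ccl17* and *Ccl22*, adjusted p = 0.33 and 0.13) or without GM-TC-LPS replicate 1 (0.38 and 0.28, adjusted p = 0.21 and 0.14), and *Dpp4* was called without GM-noTC-LPS replicate 2 (0.77, adjusted p = 0.0073). *Fscn1* was at 23.3 and 23.5 CPM in M-TC-LPS and at 18 and 19.1 CPM in M-noTC-LPS, 1.26 times lower (adjusted p = 0.016), and was not called without M-noTC-LPS replicate 1 (-0.29, adjusted p = 0.12), M-TC-LPS replicate 1 (-0.34, adjusted p = 0.070) or M-TC-LPS replicate 2 (-0.33, adjusted p = 0.068), or with library size alone (adjusted p = 0.077). That scaling turned the split of all genes between M-noTC-LPS and M-TC-LPS from 1298 higher and 1619 lower to 2101 and 880.

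The dish moved other DC markers in GM-BMDMs at steady state too. *Itgae* was at 7.57 ± 0.27 CPM in GM-noTC against 2.76 ± 1.11 CPM in GM-TC, *Mgl2* at 111 ± 1.66 against 69 ± 2.23 CPM and *Cd40* at 2.36 ± 0.36 against 0.796 ± 0.13 CPM. Where 7.54% of all genes were called, 2 cDC1 markers were higher and 1 lower, 3 cDC2 markers were higher and 0 lower, and 2 of 18 mature DC genes were higher. In M-noTC against M-TC 1 cDC1 marker was higher and 1 lower, 2 cDC2 markers were higher and 2 lower, and 2 mature DC genes were higher and 3 lower, where 27.2% of all genes were called. *Itgax* was at 47.1 ± 0.089 against 15.5 ± 1.11 CPM and *Clec10a*, a lectin receptor, at 7.21 ± 1 against 14.3 ± 0.97 CPM. These marker values were not recomputed with the share of other libraries subtracted.

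The LPS response differed between GM and M for 7 of 9 genes on TC (edgeR interaction term, 41.1% of all genes called) and for 5 of 9 on noTC (36.2%). It differed between the dishes for 1 of 9 genes in GM, *Ccl22* (0.783% of all genes called), and for 2 of 9 in M, *Ccl17* and *Ccl22* (10.6%). With the share of other libraries subtracted, 0 of 9 were called in GM and 0 of 9 in M. The GM call was also lost when single libraries were left out, as given below. *Fscn1* rose less in GM than in M, by 3.31 ± 0.39 on TC and 1.84 ± 0.29 on noTC on the log2 scale (edgeR interaction, adjusted p = 3.7e-07 and 3.1e-05). After the subtraction *Fscn1* was at -2.97 (GM minus M) on noTC and stayed called. Its steady state level was higher in GM, and the M-TC libraries had 4 and 3 counts of it, where fitted values depend on the prior count. These comparisons share libraries with those above, so they are no further evidence of them.

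The genes can be ranked within a culture only per length. Per kb of exon (GENCODE vM21), *Ccl17* was highest in GM-TC, at 127 CPM per kb, over *Ccl22* at 29.5, *Ccr7* at 4.76 and *Batf3* at 2.81. In GM-TC-LPS *Ccl22* was highest, at 606 CPM per kb, over *Ccl17* at 490, *Fscn1* at 31.8 and *Ccr7* at 28.3. In M-TC-LPS the order was *Ccl22* at 22.6, *Ccl17* at 17.4 and *Fscn1* at 7.77, and *Kmo* followed at 0.912 CPM per kb. *Flt3* was lowest in all 4 of the steady state groups, at 0.00606 to 0.0338 CPM per kb. Across groups, neighbours in the order of levels that overlapped in their libraries included GM-TC and GM-noTC for *Ccr7* and *Batf3*, the LPS groups of GM for *Fscn1* and those of M for *Ccl17*.

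Patterns were compared over the 8 groups as the mean absolute difference of centred log2 values (pseudocount 0.5) among 10405 genes at 2 CPM or more. Within the 10 genes *Batf3* and *Cd209a* were most alike, at 0.291, followed by *Batf3* and *Kmo* at 0.654. Outside them, *Ccl17* was nearest to *Met* (0.25), *Olr1* (0.276) and *Cd38* (0.333), and *Ccl22* to *Slc7a2* (0.487), *Cav1* (0.547) and *Ptx3* (0.594). *Ccr7* was nearest to *Ly6c2* (0.353), which has a near copy, then *Clmp* (0.36) and *Aldh1a2* (0.366), and *Fscn1* to *Slc7a11* (0.248), *AA467197* (0.334) and *Upp1* (0.341). *Zbtb46* was nearest to *Rbfox2* (0.215), *Batf3* to *Nek6* (0.204), *Kmo* to *Sgk1* (0.333), *Dpp4* to *Klk1b11* (0.198) and *Cd209a* to *Mras* (0.174). Only 1 gene lay within 0.5 of *Ccl22*, and 228 lay within 0.5 of *Batf3*. The 8 group means come from 16 libraries, and this ranking is a description with no test.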

How the data were processed

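Total RNA of BMDMs was sequenced in 16 libraries of 8 groups. The authors deposited 1 table of estimated counts per gene, not normalized, and 6.56% to 8.19% of values a library were not whole. The submitters' processing notes name fastp 0.18.0, Bowtie2 2.2.8, HISAT2, StringTie 1.3.1, RSEM, DESeq2 and edgeR. The genome build, annotation and strand setting are not given in the sources used here. The deposited estimated counts were rounded to whole numbers and fitted in edgeR 4.0.16 (R 4.3.3) as 8 groups over all 16 libraries, with TMM scaling and filterByExpr by group, which kept 12514 of 22287 genes and 9 of the 10 followed here. The quasi-likelihood test was used for 12 pairwise comparisons and 6 interactions, with Benjamini-Hochberg adjustment over all genes tested and a call at adjusted p under 0.05. For comparisons with a group of up to 10 summed counts the ratio of counts was computed with an exact 95% interval, and fitted values there depend on the prior count. SE was taken from the fold change and its F value.

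The 10 genes and all gene lists were chosen with earlier results of these data known. From other lists, counts over the list were taken and at most 4 genes a comparison were named by the largest change among called genes of 1 CPM or more, with the markers *Xcr1* and *Cd8a* named after their values were seen. For each tested gene the 3 nearest patterns were listed. Same-numbered libraries did not deviate together (r = -0.0636 to 0.0361 over 12 comparisons). Replicates of a group differed by more than sampling noise (chi-square per gene 1.92 to 12.9, the highest in GM-TC). On simulated data for GM-noTC against GM-TC (12514 genes), edgeR called 81 of 100 genes changed by 1 and 95 of 100 changed by 2 on the log2 scale, and 4 unchanged genes. The simulation gave every group the same spread, so it does not carry the larger spread of GM-TC. Alternatives were DESeq2 1.42.0, DESeq2 size factors, library size alone, no filter, only the libraries compared, a replicate block, the study's rule of a fold above 2 with an unadjusted p, leaving out each library, and subtracting from noTC steady state libraries the share of other libraries.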

Additional observations from a re-analysis of the deposited data

Results flagged for a closer look

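Each value here is a difference between effects on the log2 scale, picked out because edgeR's interaction term had an adjusted p under 0.05. The direction is the effect in GM minus that in M, or on noTC minus that on TC. All rest on 2 libraries a group, and those that use the same libraries are not separate evidence.

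The LPS effect on TC dishes was larger in GM for *Zbtb46* (2.76, adjusted p = 0.0012) and *Dpp4* (2.47, adjusted p = 0.016). It was smaller in GM for *Fscn1* (-3.31), *Ccl17* (-4.81) and *Ccl22* (-4.19), with adjusted p of 3.7e-07, 6.8e-07 and 2.1e-09, and these 3 rose in both. Their M-TC baselines were 4 and 3, 2 and 2, and 4 and 3 counts, where fitted values depend on the prior count. In CPM these 3 rose more in GM. *Ccl22* went from 68.7 to 1410 CPM in GM-TC and from 0.136 to 52.5 CPM in M-TC. *Kmo* (-3.45, adjusted p = 3.3e-08) fell in GM and rose in M, and *Batf3* (-2.28, adjusted p = 0.0069) fell in GM and was not called in M. Without M-TC-LPS replicate 1 *Batf3* was at -1.52 (adjusted p = 0.23) and *Dpp4* at 2.09 (0.098), and without M-TC replicate 2 *Dpp4* was at 1.64 (0.28) and *Kmo* at -4.07.

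On noTC dishes the difference was 1.48 for *Ccr7* (adjusted p = 0.028), -1.84 for *Fscn1* (3.1e-05), -1.25 for *Ccl17* (0.0028), -1.94 for *Batf3* (0.019) and -4.56 for *Kmo* (1.6e-10). *Ccr7* was not called without M-noTC replicate 1 (1.48, adjusted p = 0.088), M-noTC replicate 2 (1.5, 0.14) or M-noTC-LPS replicate 1 (1.22, 0.11), nor with the share of other libraries subtracted (0.75, 0.39). *Ccl22*, not called here, was at -3.68 (1.9e-07) after the subtraction. *Fscn1* was then at -2.97 (1.8e-06) and *Ccl17* at -2.70 (1.5e-05), and both stayed called. *Batf3* was not called without GM-noTC-LPS replicate 2 (-1.73, 0.053), M-noTC replicate 2 (-1.99, 0.05) or M-noTC-LPS replicate 2 (-1.64, 0.16).

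Between dishes the LPS effect on *Ccl22* differed by 0.49 in GM (adjusted p = 0.02) and by -3.56 in M (4e-06), and that on *Ccl17* by -3.32 in M (0.01). The call of *Ccl22* in GM was lost without GM-noTC replicate 1 (0.52, 0.072) or 2 (0.47, 0.15), GM-noTC-LPS replicate 1 (0.41, 0.13), GM-TC replicate 2 (0.39, 0.052) or GM-TC-LPS replicate 1 (0.43, 0.13) and after the subtraction (0.56, 0.17), and that of *Ccl17* in M without M-TC replicate 1 (-3.35, 0.061) or 2 (-3.27, 0.071). In GM *Dpp4* was called without GM-noTC-LPS replicate 1 (-1.20, 0.0084) and *Ccl17* without GM-TC replicate 1 (0.43, 0.033). The dish effect at steady state differed between GM and M by -3.07 for *Ccl17* (0.015), -4.36 for *Ccl22* (9.3e-08), 1.57 for *Kmo* (0.012) and 2.06 for *Dpp4* (0.047). *Ccl17* was not called without M-noTC replicate 2 (-2.89, 0.062), M-TC replicate 1 (-3.10, 0.079) or M-TC replicate 2 (-3.02, 0.093), and *Kmo* without M-TC replicate 2 (0.94, 0.32) or M-noTC replicate 2 (1.58, 0.051). *Dpp4* lost its call without any of 6 of the 8 libraries, from 1.22 (0.56) without M-TC replicate 2 to 2.2 (0.088) without M-noTC replicate 1, and kept it without GM-TC replicate 1 or M-TC replicate 1. Without GM-TC replicate 1 *Ccr7* (-2.55, 0.04) and *Zbtb46* (1.81, 0.034) were called as well. After the subtraction none of the 4 chemokine differences that use M-noTC in this paragraph was called: for dish by LPS in M *Ccl17* was at -1.88 (0.30) and *Ccl22* at 0.05 (1), and for dish by growth factor *Ccl17* was at -1.63 (0.38) and *Ccl22* at -0.81 (0.70).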

How the results depend on the processing

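Of 2072 gene values recomputed under an alternative, 1974 kept their direction where called and their side of the threshold, 68 lost a call, 28 gained one and 2 reversed: *Dpp4* upon LPS in GM-noTC with library size alone (-0.005) and *Ccl22* for the dish by LPS effect in M after the subtraction (0.051). Counts of the 9 genes called moved by over 1.5 times as follows. With library size alone LPS in M-TC went from 5 to 8, the dish in M with LPS from 2 to 1 and dish by growth factor after LPS from 0 to 1. With no filter the dish in GM went from 2 to 4, dish by LPS in GM from 1 to 2 and dish by growth factor after LPS from 0 to 2. A fold above 2 with an unadjusted p gave 1 for the dish in GM, 0 for the dish in GM with LPS and in M with LPS, 0 for dish by LPS in GM and 7 for dish by growth factor at steady state. Only the libraries compared gave 0 for dish by LPS in GM and 1 for dish by growth factor after LPS. The subtraction gave 0 for the dish in M, 0 and 0 for dish by LPS in GM and M and 2 for dish by growth factor at steady state. DESeq2 and its size factors moved none of the 18 counts by over 1.5 times, and DESeq2 gave 2 in place of 3 for the dish in M.

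Leaving out each library in turn gave 9 to 9 for GM against M on TC and on noTC, 7 to 9 and 8 to 8 after LPS, 9 to 9 and 8 to 9 for LPS in GM-TC and GM-noTC, and 4 to 5 in M-TC and M-noTC. The dish gave 2 to 3 in GM, 0 to 3 in GM with LPS, 2 to 3 in M and 1 to 2 in M with LPS. The interactions gave 5 to 7 and 3 to 5 for growth factor by LPS on TC and noTC, 0 to 2 and 1 to 2 for dish by LPS in GM and M, and 1 to 6 and 0 to 1 for dish by growth factor at steady state and after LPS.

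The replicate numbers share only a number. Under the replicate block all 18 counts were within 1.5 times, and 1 of 162 gene results lost its call, *Dpp4* for dish by growth factor at steady state (2.05, edgeR adjusted p = 0.051). Depth limits *Flt3* everywhere and *Dpp4*, *Cd209a* and *Ccr7* in M-BMDMs, which had few counts.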

Other observations

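Of 11 other transcription factors of DC biology, all tested, 9 rose and 1 fell with LPS in GM-TC, and 9 rose and 0 fell in M-TC. Of all 12514 genes tested 4103 rose and 4282 fell upon LPS with GM-CSF, and 4709 rose and 4549 fell with M-CSF. *Ikzf1*, which codes for Ikaros, went from 65.2 ± 1.27 to 292 ± 17.1 CPM in GM-TC (all errors SD, n = 2) and from 101 ± 2.78 to 1270 ± 39.4 CPM in M-TC. *Batf2* went from 1.05 ± 0.0094 to 45.8 ± 2.61 CPM and from 2.22 ± 0.18 to 102 ± 1.74 CPM. At steady state *Runx3* was higher in GM-TC, at 15.6 ± 0.83 against 1.53 ± 0.997 CPM in M-TC, and *Bcl6* was lower, at 16 ± 1.31 against 75.8 ± 1.95 CPM. For 8 of the 11 the LPS effect on TC was smaller in GM than in M by edgeR's interaction term, and for 0 it was larger, against 2920 and 2225 of all genes (41.1% called).

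Of 9 markers of plasmacytoid DCs, 5 were tested, and 1 was higher and 2 were lower in GM-TC than in M-TC, where 61.5% of all genes were called. *Tcf4*, a transcription factor these cells need, was at 25.3 ± 3.78 CPM in GM-TC and 110 ± 4.28 CPM in M-TC. *Pacsin1* was at 1.95 ± 0.26 against 0.019 ± 0.026 CPM. *Cox6a2*, also a heart and skeletal muscle gene, was at 1.32 ± 0.50 CPM in GM-TC and at 0.041 ± 0.058 CPM in GM-noTC, and the heart markers were high in the same TC steady state libraries.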
